A study of Mus musculus with 12 samples.

Results

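The 7 genes described here encode the transcription factor NRF2, its relative NRF1 and the proteins that restrain, partner or stabilise them. They were chosen by symbol, as Nfe2l2, Nfe2l1, Bach1, Mafg, Mafk, Keap1 and Sqstm1, and the array carries 11 probes for them among 25697 probes in all. Of these 11 probes, 10 passed the filter on dim signal, so that each of the 7 genes was measured, among 11163 genes tested. The probe left out is a second Nfe2l2 probe, which was not detected on any of the 12 arrays.

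RNA of whole back skin from E18.5 mouse embryos was hybridised to 12 Illumina bead arrays. Per the labels, 3 arrays carry RNA of embryos lacking type I keratins (type I knockout, KO I), 3 of their own wild type (WT I), 3 of embryos lacking type II keratins (type II knockout, KO II) and 3 of the wild type of that series (WT II), all of strain C57BL/6. The labels name no allele, no Cre line and no treatment, and they do not say whether each array is a separate embryo, so p-values measure the spread between these arrays, which may be partly technical. Krt14, a type I keratin, was not detected on any KO I array, and the type II keratins Krt5 and Krt1 were not detected on any KO II array. Each array detected 13272 to 13693 probes, log2 signals correlated at 0.962 to 0.991 within groups, and keratinocyte and dermal fibroblast markers were present on all wild-type arrays, as skin should give. Signals of Y-linked genes were high on all 3 KO I arrays, while each other group held arrays with high and with low Y-linked signal.

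As background, NRF2 is a basic leucine zipper factor of the cap'n'collar family that switches on antioxidant and detoxifying genes from a short DNA motif, the antioxidant response element, as a dimer with a small Maf protein. In unstressed cells KEAP1, an adaptor of the CUL3 ubiquitin ligase, hands NRF2 to the proteasome, and oxidants or binding of p62, the product of Sqstm1, to KEAP1 let NRF2 escape. BACH1 occupies the same motif as a haem-sensing repressor. NRF1, the product of Nfe2l1, is held in the endoplasmic reticulum and is known for raising proteasome genes when proteasome capacity falls short. Much of this control acts on proteins, and the arrays measured RNA only.

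Signals are given on a log2 scale after background correction and quantile normalization, and a difference of 1 on that scale is a 2-fold difference. A gene is said to have risen or fallen where limma's moderated test gave an adjusted p under 0.05 (Benjamini-Hochberg over all 11163 genes). Log2 changes are knockout minus own wild type, ± standard error, from 3 arrays per group.

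Nfe2l2 and Sqstm1 had higher signals on every knockout array than on every array of the matching wild type, in both series. In the type II knockout Nfe2l2, Sqstm1 and Nfe2l1 rose and none of the 7 genes fell. Nfe2l2 alone rose in the type I knockout and none fell. Over all genes 37.5% were called in the type II knockout (15.6% higher, 21.8% lower) and 27.8% in the type I knockout (12.2% higher, 15.6% lower), so the shares of called members, 3 of 7 and 1 of 7, do not set them apart from genes in general. The median log2 change of the 7 genes was 0.60 in the type II knockout, against -0.08 over all genes, and 0.03 in the type I knockout, against -0.11 over all genes.

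Nfe2l2, the gene of NRF2, had log2 signals of 8.26, 8.31 and 7.34 on the KO II arrays, against 6.45, 6.23 and 6.17 on the WT II arrays. The groups did not overlap, and KO II replicate 3 lay well below the other two. The gene rose by 1.69 ± 0.23 (3.22-fold, adjusted p = 0.000205). On the KO I arrays its signals were 7.61, 7.23 and 7.36, against 6.68, 6.86 and 6.51 on the WT I arrays. These groups did not overlap either, and the rise was 0.72 ± 0.23 (1.64-fold, adjusted p = 0.0355).

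The type II rise of Nfe2l2 was called under all 24 alternative settings (1.03 to 2.01). Its type I call was lost when any single array of the type I series was left out, with adjusted p of 0.122, 0.0529 and 0.0727 without knockout replicates 1, 2 and 3, and 0.0747, 0.0508 and 0.103 without wild-type replicates 1, 2 and 3.

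Sample titles open with a number that some arrays share, whose meaning the labels do not give. Within the arrays of the same title number, Nfe2l2 was higher in knockout in every case: by 1.81, 2.07 and 1.18 in the 3 pairs of the type II series, and in the type I series by 0.65 over replicates 1 and 2 together and by 0.85 in replicate 3.

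The 250 bases before the transcription start of Nfe2l2 are shown because NRF2 is known to act on its own gene through an antioxidant response element, and those of Sqstm1 because it was the member with the next largest called change. Both windows come from RefSeq (build GRCm38.p6, minus strand), Nfe2l2 at chr2:75704664-75704913 and Sqstm1 at chr11:50210821-50211070, printed in the direction of transcription with matches to the core letters TGACNNNGC in capitals.
Nfe2l2: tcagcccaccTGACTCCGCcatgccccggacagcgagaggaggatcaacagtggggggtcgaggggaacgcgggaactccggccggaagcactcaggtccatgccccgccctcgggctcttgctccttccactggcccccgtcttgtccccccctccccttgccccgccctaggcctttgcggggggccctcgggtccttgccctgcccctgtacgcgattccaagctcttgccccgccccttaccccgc
Sqstm1: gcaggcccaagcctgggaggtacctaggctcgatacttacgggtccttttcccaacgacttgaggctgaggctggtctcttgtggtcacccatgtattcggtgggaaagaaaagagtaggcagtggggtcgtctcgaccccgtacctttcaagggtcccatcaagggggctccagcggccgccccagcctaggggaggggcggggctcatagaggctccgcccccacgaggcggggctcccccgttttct
The Nfe2l2 window held 1 match on the strand of transcription, TGACTCCGC, starting at base -240 (chr2:75704895-75704903), and the Sqstm1 window held none. Searched on both strands, TGACNNNGC occurred in 3 of the 11 windows of the 7 genes, the other two being TGACCGTGC before Mafg and TGACACCGC before Mafk, both on the opposite strand. It occurred in 10.2% of all 32851 windows of that length. The AP-1 letters TGANTCA, which can overlap the first motif, occurred in 0 of the 11 windows and in 6.75% of all windows. Nfe2l1 has 5 annotated starts, and none of their windows held either motif. A match is a run of letters, and no binding was measured here.

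**Figure D1:**
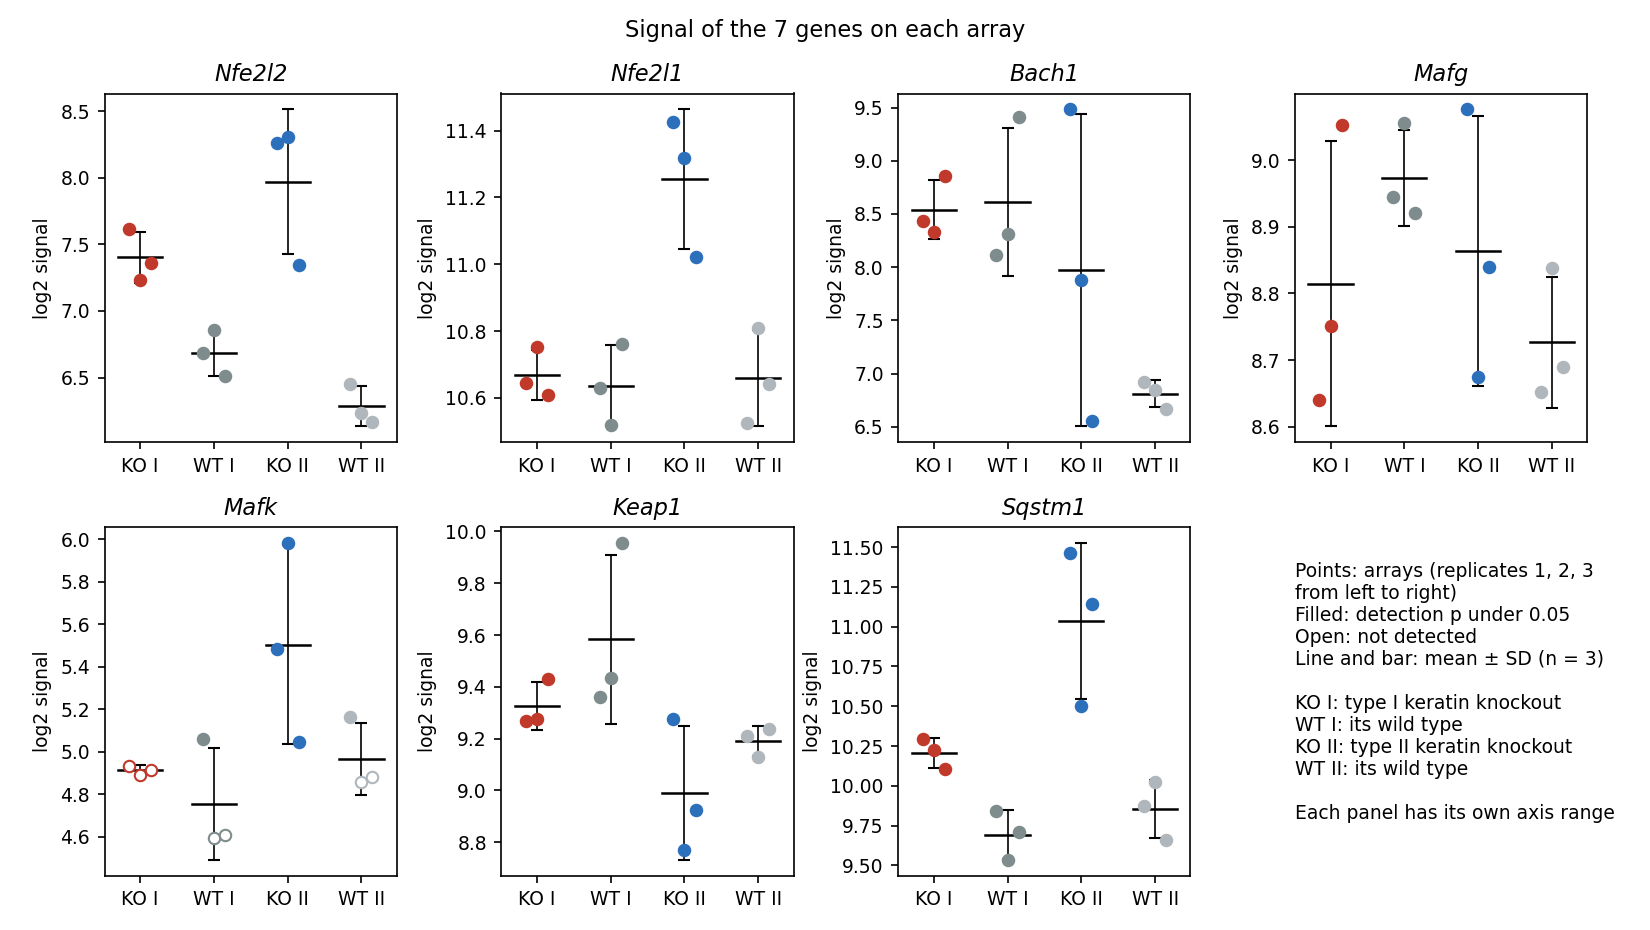
Log2 signal of the 7 genes on each of the 12 arrays, with the mean and SD of 3 arrays per group and an axis range of its own for each gene. Nfe2l2 and Sqstm1 lie higher on all knockout arrays than on the arrays of their wild type in both series, Nfe2l1 does so in the type II series, Bach1 spreads over 2.93 log2 units among the KO II arrays, and most Mafk signals outside KO II are not detected (open points).

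Sqstm1 encodes p62, an autophagy receptor that binds KEAP1 and is itself a known NRF2 target. Its log2 signals were 11.47, 10.50 and 11.14 on the KO II arrays, against 9.87, 10.03 and 9.66 on the WT II arrays. All KO II arrays lay above all WT II arrays, the second one least, and the gene rose by 1.18 ± 0.21 (2.27-fold, adjusted p = 0.0011). On the KO I arrays the signals were 10.29, 10.23 and 10.11, against 9.84, 9.54 and 9.71 on the WT I arrays. These groups did not overlap, yet the change of 0.51 ± 0.21 was not called (adjusted p = 0.0847).

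The type II call of Sqstm1 held under all 24 alternatives (0.97 to 1.45). The type I change was called without KO II replicate 1 (adjusted p = 0.0468) or 2 (0.0168), arrays that belong to neither group of that comparison, with a fit of the type I arrays alone (0.0226) and with array weights (0.0101), in a range of 0.0101 to 0.22 over the alternatives. Within title numbers Sqstm1 was higher in knockout by 1.59, 0.47 and 1.48 in the type II pairs, and by 0.57 over replicates 1 and 2 and 0.40 in replicate 3 of the type I series.

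Nfe2l1, the gene of NRF1, had log2 signals of 11.43, 11.32 and 11.02 on the KO II arrays, against 10.53, 10.81 and 10.64 on the WT II arrays. The groups did not overlap, and Nfe2l1 rose by 0.60 ± 0.14 (1.51-fold, adjusted p = 0.00504), a call kept under all 24 alternatives. In the type I series the signals were 10.64, 10.75 and 10.61 on the KO I arrays, against 10.63, 10.52 and 10.76 on the WT I arrays. Those groups overlapped throughout, and the change was 0.03 ± 0.14 (95% interval -0.26 to 0.33, adjusted p = 0.882). The 3 type II pairs of the same title number differed by 0.90, 0.51 and 0.38.

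All knockout arrays lay above all wild-type arrays for 3 of the 7 genes in the type II series and for 2 of 7 in the type I series. Over all genes this held for 19.9% and 18.4%.

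Bach1, the repressor that competes with NRF2 for its motif, had the largest spread of the 7 genes within KO II, KO I and WT I. Its log2 signals were 9.48, 7.88 and 6.55 on the KO II arrays, against 6.92, 6.85 and 6.67 on the WT II arrays. KO II replicate 1 stood high and replicate 3 lay below all WT II arrays. The fitted change of 1.16 ± 0.56 was not called (adjusted p = 0.125), but it became 1.87 ± 0.45 and was called without KO II replicate 3 (adjusted p = 0.00693), and it was also called with the title number as a block (0.0407) and with array weights (0.0131). Without KO II replicate 1 the change was 0.40. Within the title numbers the type II differences were 2.56, 1.03 and -0.12.

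On the type I side Bach1 had log2 signals of 8.44, 8.33 and 8.85 on the KO I arrays, against 8.12, 8.31 and 9.41 on the WT I arrays, where replicate 3 stood high. The change was -0.07 ± 0.56 (95% interval -1.30 to 1.15), and its sign turned without WT I replicate 3 (0.33), without KO I replicate 2 (0.03) and with array weights (0.06).

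The small Maf proteins lack an activation domain of their own and serve NRF2, NRF1 and BACH1 as dimer partners. Mafg had log2 signals of 9.08, 8.67 and 8.84 on the KO II arrays, against 8.65, 8.84 and 8.69 on the WT II arrays. On the KO I arrays it had 8.64, 8.75 and 9.05, against 8.94, 9.05 and 8.92 on the WT I arrays. The groups overlapped in both series. The changes were 0.14 ± 0.14 (95% interval -0.17 to 0.45) in the type II knockout and -0.16 ± 0.14 (95% interval -0.47 to 0.15) in the type I knockout, neither called.

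Mafk was near the limit of detection. It was detected on 3 of 3 KO II arrays and 1 of 3 WT II arrays, and on 0 of 3 KO I arrays and 1 of 3 WT I arrays. Its log2 signals were 5.48, 5.98 and 5.05 on the KO II arrays, against 5.16, 4.86 and 4.88 on the WT II arrays, with 1 WT II array above the lowest KO II array. The change of 0.54 ± 0.21 missed the threshold (adjusted p = 0.0641), and it was called without KO II replicate 3 (0.77 ± 0.19, adjusted p = 0.00838) and with a covariate for sex (adjusted p = 0.0473). Mafk passed the filter of at least 3 detected arrays only through the KO II arrays. Its type II tests are therefore not independent of that filter, and these calls are no support for a rise. With signals below the lowest detected value of their array raised to it, the type II difference was 0.47. In the type I series the means were 4.91 on the KO I arrays and 4.75 on the WT I arrays, and no fold is given, since 5 of these 6 signals were not detected.

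Keap1, the adaptor that marks NRF2 for degradation, was read by 4 probes, more than any other of the 7 genes. On the brightest probe the log2 signals were 9.27, 8.77 and 8.92 on the KO II arrays, against 9.21, 9.13 and 9.24 on the WT II arrays. The same probe gave 9.27, 9.28 and 9.43 on the KO I arrays, against 9.36, 9.43 and 9.96 on the WT I arrays. Knockout and wild type overlapped in both series, with changes of -0.20 ± 0.17 (95% interval -0.58 to 0.17, adjusted p = 0.391) in the type II knockout and -0.26 ± 0.17 (95% interval -0.63 to 0.12, adjusted p = 0.289) in the type I knockout.

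The 4 Keap1 probes did not share a direction. In the type II knockout, from the brightest to the dimmest probe, the changes were -0.20, -0.10, 0.02 and 0.14. In the type I knockout they were -0.26, -0.13, -0.02 and 0.28. Fitted with every probe as a row of its own, 0 of the 4 Keap1 probes were called by limma in either knockout, and 0 had an unadjusted p under 0.05. Among the 10 member probes that entered, 3 were called in the type II knockout and 1 in the type I knockout, where 36.5% and 25.9% of all 14744 entered probes were called. Those probes are the ones of Nfe2l2, Nfe2l1 and Sqstm1, and of Nfe2l2.

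**Figure D2:**
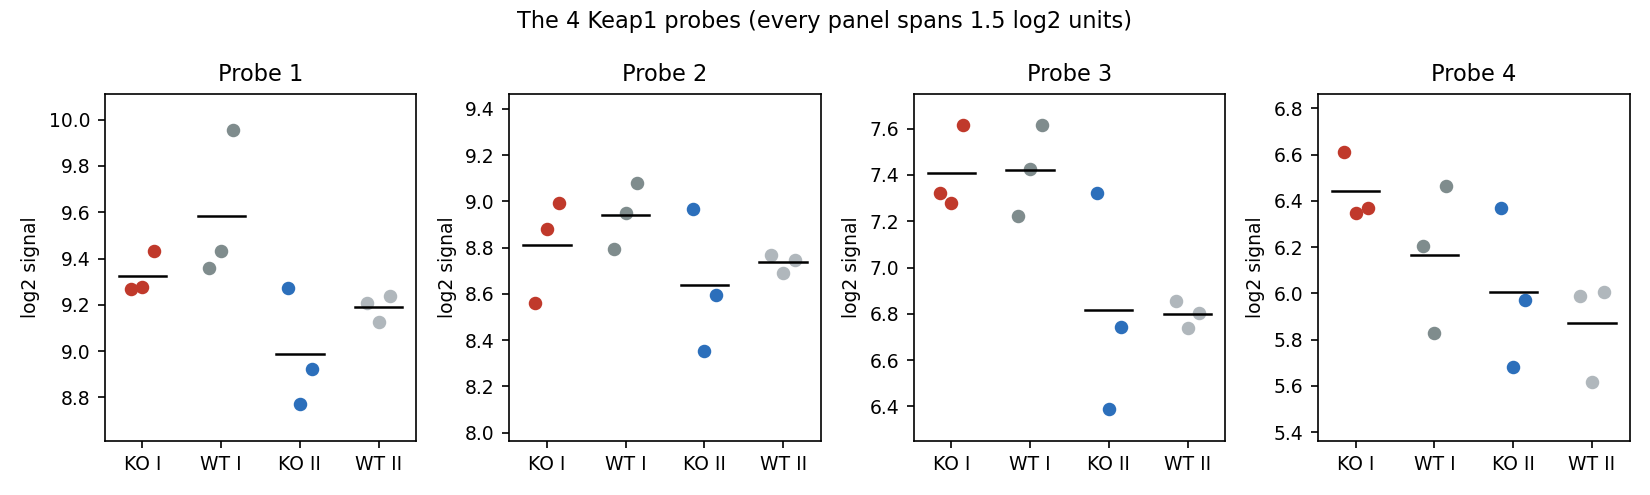
Log2 signal of the 4 Keap1 probes on each array, ordered from the brightest (probe 1) to the dimmest (probe 4), with group means as lines and 1.5 log2 units on every vertical axis. Knockout and wild-type arrays overlap on every probe in both series, and the knockout mean is below the wild-type mean on probes 1 and 2 and above it on probe 4 in both series.

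**Figure D3:**
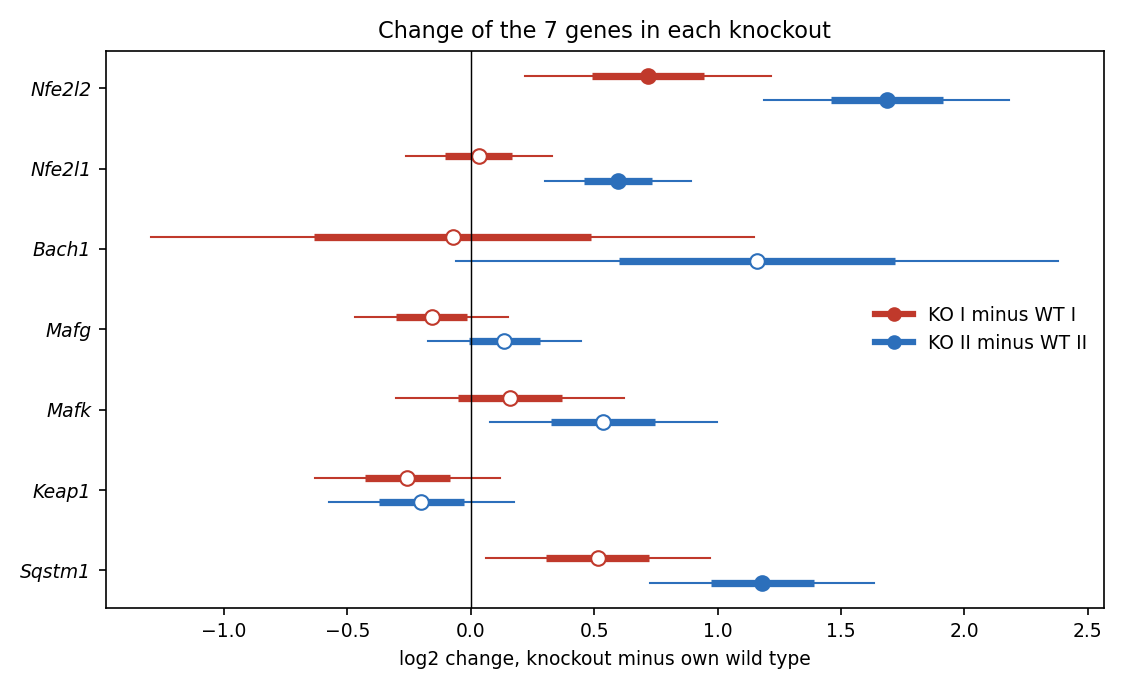
Log2 change of the 7 genes in the type I knockout (red) and the type II knockout (blue), each against its own wild type. Circles are fitted changes, filled where the adjusted p is under 0.05, thick bars are 1 standard error and thin bars the 95% interval, with filled circles for Nfe2l2 at 0.72 and 1.69, Nfe2l1 at 0.60 and Sqstm1 at 1.18.

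Whether the 2 knockouts differed in their effect was tested as the type I change minus the type II change. For all 7 genes this difference was negative: -0.97 ± 0.32 for Nfe2l2, -0.56 ± 0.19 for Nfe2l1, -0.67 ± 0.29 for Sqstm1, and -0.06 to -1.23 for the others. The Mafk difference (-0.38 ± 0.30) is not independent of the filter, which Mafk passed only through the KO II arrays. The shared sign is therefore no support for a difference. limma called 0 of the 7 differences after adjustment, while 3 had an unadjusted p under 0.05, those of Nfe2l2 (adjusted p = 0.146), Nfe2l1 (0.156) and Sqstm1 (0.282). Over all genes 3.06% of differences were called. Leaving out KO II replicate 3 made the Nfe2l2 difference -1.28 ± 0.21 (adjusted p = 0.00751), and leaving out KO II replicate 2 made that of Sqstm1 -0.93 ± 0.21 (adjusted p = 0.0312). With array weights the Nfe2l2 difference was called too (adjusted p = 0.0232). The sign for Keap1 turned with median scaling, with the mean of its probes and without WT I replicate 3 or KO II replicate 1.

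Between the wild types of the 2 series, WT II minus WT I, limma called 0 of the 7 genes, with an unadjusted p under 0.05 for Bach1 (-1.80 ± 0.56, adjusted p = 0.136) and Keap1 (-0.39 ± 0.17, adjusted p = 0.274). Over all genes 1.53% were called. All WT II arrays lay below all WT I arrays for Nfe2l2, Bach1, Mafg and Keap1, and over all genes the arrays of the wild types did not overlap for 28.0%. The Bach1 difference was called without KO II replicate 1 (adjusted p = 0.0333) or 3 (0.0457) and with array weights (0.0363).

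Ordered by mean log2 signal, Nfe2l2 was highest in KO II (7.97 ± 0.54, SD, n = 3), then KO I (7.40 ± 0.19), WT I (6.68 ± 0.17) and WT II (6.28 ± 0.15), where KO II and KO I overlapped and the other neighbours did not. Sqstm1 stood at 11.04 ± 0.49 in KO II, 10.21 ± 0.10 in KO I, 9.85 ± 0.18 in WT II and 9.69 ± 0.15 in WT I, with an overlap between the wild types only. Nfe2l1 stood at 11.26 ± 0.21 in KO II, clear of KO I at 10.67 ± 0.08, WT II at 10.66 ± 0.14 and WT I at 10.64 ± 0.12, and these 3 overlapped. For Nfe2l2, Nfe2l1, Bach1, Mafk and Sqstm1 the SD was larger among the KO II arrays than in any other group.

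Whole skin mixes cell types, and a rise can mean more cells that express a gene or more RNA per cell, which bulk RNA cannot tell apart. The summed signal of 3 keratinocyte markers outside the keratin clusters (Trp63, Perp and Sfn, a subset taken after the values were seen; the fourth, Dsp, was not measured) was 7100 to 8251 on the KO II arrays, against 3479 to 3883 on the WT II arrays, and 4918 to 5261 on the KO I arrays, against 2290 to 3530 on the WT I arrays. The 3 did not move alike. Sfn rose by 2.79 in the type II knockout and 2.94 in the type I knockout, and Perp by 1.44 and 1.95. Trp63 was not called by limma in the type II knockout (0.33 ± 0.18, adjusted p = 0.17) or the type I knockout (0.21 ± 0.18, adjusted p = 0.41). Over the whole list of 8 keratinocyte markers 7 were measured, of which 2 rose and 3 fell in the type II knockout and 3 rose and 2 fell in the type I knockout, the deleted keratins included. Its summed signal was 33720 to 50550 on the KO II arrays, against 45160 to 52330 on the WT II arrays, and 9470 to 10820 on the KO I arrays, against 47090 to 48920 on the WT I arrays.

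Several markers of other skin cell types fell. Of 11 measured fibroblast markers of 12 listed, 7 fell in the type II knockout and 8 in the type I knockout, and none rose, with summed signals of 41300 to 51510 on the KO II arrays, against 68970 to 72680 on the WT II arrays, and 46360 to 53170 on the KO I arrays, against 69930 to 74770 on the WT I arrays. Of 10 measured skeletal muscle markers of 11 listed, 9 fell in the type II knockout and 5 in the type I knockout (30920 to 61660 on the KO II arrays, against 88770 to 104100 on the WT II arrays, and 69490 to 75850 on the KO I arrays, against 93240 to 110200 on the WT I arrays). Of 5 measured mast cell markers of 6 listed, 4 fell in the type II knockout and 0 were called in the type I knockout (0 with an unadjusted p under 0.05 by limma), with summed signals of 1108 to 9719 on the KO II arrays, against 14350 to 16660 on the WT II arrays, and 10330 to 16810 on the KO I arrays, against 16320 to 18430 on the WT I arrays.

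Of 6 measured adipocyte markers of 8 listed, 5 fell in the type II knockout and 6 in the type I knockout (5085 to 11240 on the KO II arrays, against 11430 to 14850 on the WT II arrays, and 6335 to 6792 on the KO I arrays, against 10060 to 15750 on the WT I arrays). Of 6 measured macrophage markers of 8 listed, 3 fell in the type II knockout and 0 were called by limma in the type I knockout (0 with an unadjusted p under 0.05). Of 3 measured erythroid markers of 6 listed, 0 were called by limma in the type II knockout (0 with an unadjusted p under 0.05) and 2 fell in the type I knockout. Of 3 measured neutrophil markers of 7 listed, 2 rose and 1 fell in the type II knockout and 1 rose and 1 fell in the type I knockout, at low summed signals of 100.5 to 343.9 over all arrays. Cxcr2, a riser in both knockouts, was detected on 3 KO I arrays, 2 KO II arrays and no wild-type array. It passed the filter only through the knockout arrays, so its calls are no support for a rise. Of 7 measured endothelial markers of 8 listed, 0 were called by limma in the type II knockout (0 with an unadjusted p under 0.05) and 1 fell in the type I knockout. The part of these shifts in the changes of the 7 genes was not tested.

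The partners of the 7 genes were followed in lists of their pathway. Over all genes 37.5% were called in the type II knockout and 27.8% in the type I knockout. Of the 4 measured genes among 8 other cap'n'collar, Bach and Maf factors, 2 rose and 1 fell in each knockout (75% called). Nfe2l3, the gene of the NRF2 relative NRF3, had a mean log2 signal of 8.66 in KO II, against 6.71 in WT II, and of 8.62 in KO I, against 6.57 in WT I. It rose by 1.95 ± 0.23 (adjusted p = 7.5e-05) in the type II knockout and by 2.04 ± 0.23 (adjusted p = 6.96e-05) in the type I knockout. Maff, another small Maf, rose by 1.36 ± 0.23 in the type II knockout and 0.99 ± 0.23 in the type I knockout. Nfe2, the founding member of the family and a factor of blood cell precursors, fell by 1.42 ± 0.27 in the type II knockout and by 1.18 ± 0.27 in the type I knockout. These 6 calls held under the alternatives in which the gene was measured. Without background correction the type II changes were 1.34 for Nfe2l3, 0.61 for Maff and -0.57 for Nfe2, and the type I changes 1.37, 0.48 and -0.44.

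Of 11 measured genes for the KEAP1 ligase and other routes of NRF2 degradation, 1 rose and 2 fell in the type II knockout (27.3% called, against 37.5% of all genes), with a list median of -0.24. None of the 11 was called by limma in the type I knockout, where 3 had an unadjusted p under 0.05 and the median was 0.00. In that knockout 2 were called lower without KO I replicate 3 and 1 without KO II replicate 1. In the type II knockout Gsk3b, a kinase gene whose product primes NRF2 for degradation without KEAP1, rose by 1.42 ± 0.30 (adjusted p = 0.00302), and by 0.63 without background correction. Skp1, a subunit of the ligase that follows that priming, fell by 0.59 ± 0.13. Csnk2a1, a casein kinase subunit, was called lower (-0.62 ± 0.21, adjusted p = 0.0361), and this call was lost without KO II replicates 2 (0.0955) or 3 (0.12) and without WT II replicates 1 (0.0541), 2 (0.107) or 3 (0.0905). Cul3, the scaffold that KEAP1 binds, had changes of -0.06 ± 0.15 in the type II knockout and 0.39 ± 0.15 in the type I knockout, neither called, and is named for its role rather than by the naming rule.

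Of 19 measured p62 partners and autophagy genes, 4 rose and 2 fell in the type II knockout (median -0.04) and 3 rose in the type I knockout with 0 lower (median 0.21). The shares called, 31.6% and 15.8%, were below those over all genes, 37.5% and 27.8%. The count of type II risers was 2 without KO II replicate 1, WT II replicate 1 or WT II replicate 2, and 2 to 6 with single arrays left out. Ulk1, a kinase gene at the start of autophagy, rose by 0.76 ± 0.16 in the type II knockout. Its type I change of 0.47 ± 0.16 (adjusted p = 0.0428) lost its call without KO I replicates 2 (0.0907) or 3 (0.146), without WT I replicates 1 (0.0718), 2 (0.0935) or 3 (0.094), and without WT II replicates 1 (0.0597), 2 (0.0579) or 3 (0.0596). Gabarapl1, an LC3 relative, rose by 0.75 ± 0.19 and the sestrin gene Sesn1 fell by 0.92 ± 0.19 in the type II knockout. Traf6, a ubiquitin ligase gene whose product binds p62, rose by 1.07 ± 0.19 and Sesn2 by 0.85 ± 0.20 in the type I knockout. Sesn2 was also called higher by limma in the type II knockout (0.61 ± 0.20, adjusted p = 0.0328), a call lost under 8 of 23 alternatives.

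Genes known as targets of the factors were followed in the same way. Of 21 measured core NRF2 targets of 27 listed, 8 rose and 4 fell in the type II knockout (median 0.32, 57.1% called) and 11 rose and 0 fell in the type I knockout (median 0.39, 52.4% called). Over the alternatives the number that rose was 4 to 10 in the type II knockout and 7 to 11 in the type I knockout. The low ends, 4 and 7, came from requiring detection on all 12 arrays, where 17 genes of the list remained. Osgin1, Nqo1 and Gpx2, risers in both knockouts and named here for their detection, would not have passed the filter on wild-type arrays alone. Their calls are not independent of that filter. The number that fell was 1 to 4 in the type II knockout, with 1 without WT II replicate 1 and 2 without KO II replicate 3 or WT II replicate 2. In the type I knockout it was 0 to 2, with 2 without KO II replicate 3. Named here outside the naming rule, the 4 that fell in the type II knockout were Txnrd1 (-1.09 ± 0.23), Me1 (-0.87 ± 0.26), Gstm1 (-0.62 ± 0.21) and Gclc (-0.44 ± 0.14). Akr1b8, an aldo-keto reductase gene, rose by 3.51 ± 0.17 in the type II knockout and 2.25 ± 0.17 in the type I knockout. Slc7a11, the cystine transporter gene, rose by 1.43 ± 0.21 in the type II knockout and 2.95 ± 0.21 in the type I knockout, and the glutathione transferase gene Gsta4 by 2.60 ± 0.32 in the type II knockout and 4.05 ± 0.32 in the type I knockout. Hmox1, the haem oxygenase gene that BACH1 is known to repress, rose by 1.65 ± 0.23 in the type II knockout and by 1.04 ± 0.23 in the type I knockout. Of 7 measured haem and iron genes 1, Hmox1, rose in each knockout, and 2 rose in the type I knockout without KO I replicate 3. The iron exporter gene Slc40a1 fell by 0.80 ± 0.19 in the type II knockout, and 2 genes fell there without KO II replicate 2. Of the haem and iron list 28.6% were called in the type II knockout and 14.3% in the type I knockout, against 37.5% and 27.8% of all genes.

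Of 29 measured proteasome genes of 32 listed, the known targets of NRF1, 2 rose and 0 fell in the type II knockout (median -0.04, 6.9% called), in which Nfe2l1 rose. In the type I knockout, in which Nfe2l1 was not called, 10 rose and 0 fell (median 0.34, 34.5% called), with 6 to 15 risers over the alternatives and 6 without KO I replicate 1, KO I replicate 2 or WT I replicate 3. Over all genes 15.6% rose in the type II knockout and 12.2% in the type I knockout. Tested directly with limma, the difference between the knockouts was called for 1 of the 29 (3.45%), against 3.06% of all genes. An unadjusted p under 0.05 was found for 12 of the 29, against 1843 of 11163 genes. The median difference, type I change minus type II change, was 0.40, against 0.0006 over all genes. No test of the list as a whole was run. The difference for Nfe2l1 was not called (adjusted p = 0.156). Whether the proteasome genes follow Nfe2l1 was not tested. Psmd11, a lid subunit gene of the proteasome, rose by 0.89 ± 0.14 in the type II knockout and 1.53 ± 0.14 in the type I knockout. Psma7 and Psmb7, genes of the core particle, rose by 0.69 ± 0.12 and 0.69 ± 0.13 in the type I knockout. The second type II call, Psmd2 (0.35 ± 0.13, adjusted p = 0.0439), was lost under 17 of 24 alternatives, in a range of 0.0292 to 0.191. Among 6 measured genes for processing NRF1, 1 rose and 1 fell in the type II knockout and 1 rose and 0 fell in the type I knockout. The shares called were 33.3% and 16.7%, against 37.5% and 27.8% of all genes. In the type II knockout 2 were called higher without KO II replicate 1, and 2 were called lower without KO I replicate 3 or WT I replicate 3. The type I riser, Nploc4 (0.48 ± 0.14, adjusted p = 0.022), lost its call without KO I replicates 1 (0.0516), 2 (0.054) or 3 (0.0658), without WT I replicates 2 (0.0562) or 3 (0.0674) and with median scaling (0.112), and 1 gene was called lower without WT I replicate 3. In the type II knockout Nploc4, a cofactor of the segregase that pulls NRF1 out of the membrane, rose by 0.58 ± 0.14 (not called with median scaling, 0.108) and Hcfc1 fell by 0.61 ± 0.13.

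**Figure D4:**
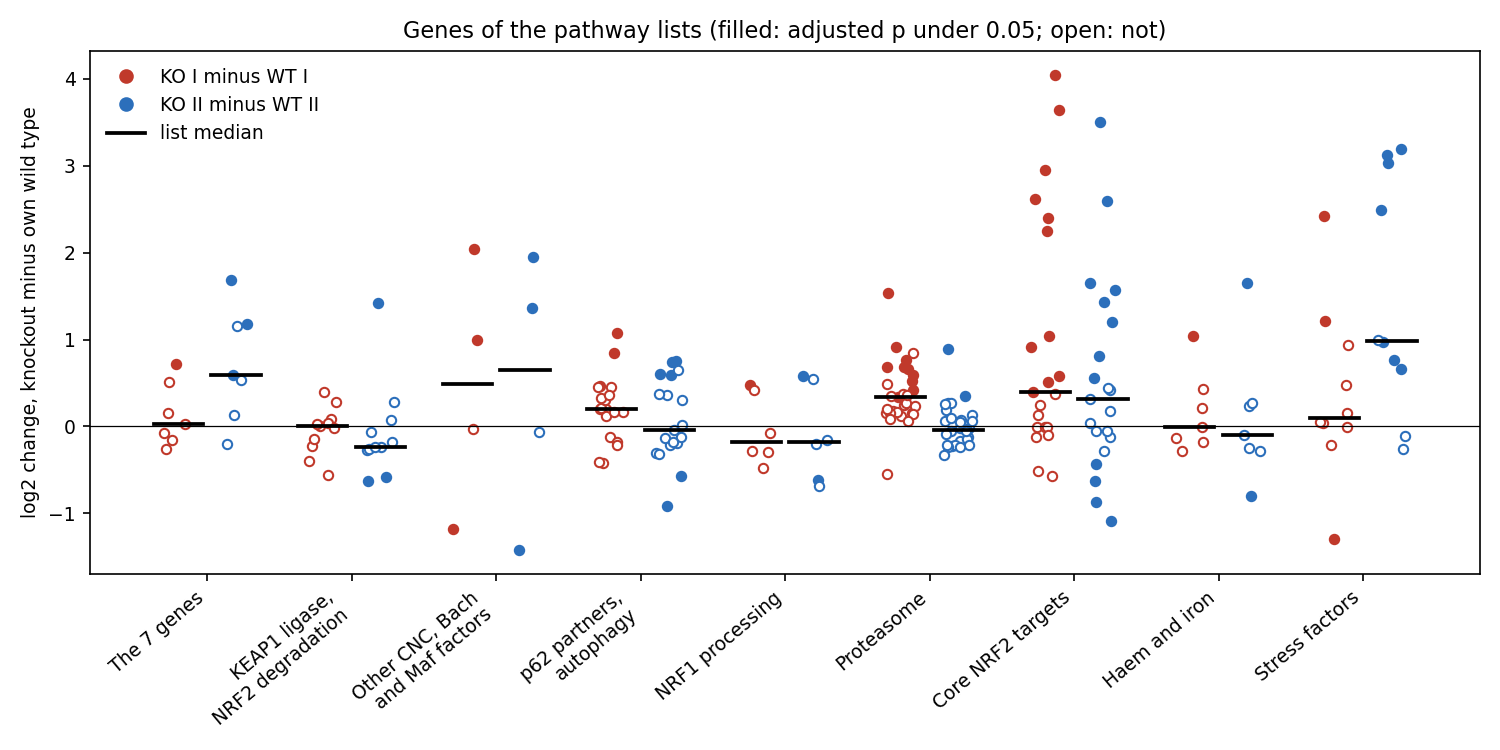
Log2 change of each measured gene of the pathway lists in the type I knockout (red) and the type II knockout (blue), each against its own wild type, filled where the adjusted p is under 0.05, with list medians as black lines. Of the proteasome genes 10 of 29 are filled in the type I knockout and 2 of 29 in the type II knockout, and the core NRF2 targets spread the most. The difference between the knockouts by limma, not drawn, was called for 1 of these 29 proteasome genes, and 12 had an unadjusted p under 0.05.

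Genes with the pattern most like that of a member were taken as the 3 with the smallest root mean square difference of mean-centred log2 signals over the 12 arrays, which is a description of these arrays. For Nfe2l2 they were N4bp2l1 (0.22), Dhrs1 (0.25) and the glycolysis gene Pgam1 (0.25), where the SD of Nfe2l2 over the arrays was 0.73. Pgam1 rose by 1.52 ± 0.17 in the type II knockout and 0.83 ± 0.17 in the type I knockout. For Sqstm1, with an SD of 0.59, they were the nonmuscle myosin gene Myh9 (0.14), Aig1 (0.21) and the integrin gene Itgb6 (0.21). For Nfe2l1, with an SD of 0.30, they were the lysosomal gene Grn (0.08), Vps18 (0.09), whose product works in fusion with lysosomes, and AU040320 (0.09). Bach1, with the largest SD of 1.03, had no gene closer than Pdpk1 (0.41), followed by Cpd and Stat3 (both 0.41).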

How the data were processed

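The authors deposited, per the file headers, a table with the average bead intensity of each probe, not normalized, and its detection p-value on each array. A second deposited table by the authors holds intensities that, from their values, are background-subtracted and quantile normalized on a linear scale (array medians of 16.3 to 16.4, 25.2% to 25.3% negative), and it served only as an alternative. How either table was made beyond this is not stated in the labels or headers.

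Using limma 3.58.1 (R 4.3.3), background was corrected by normexp, with control probes taken from detection p-values and an offset of 16, before quantile normalization and log2. Probes with a detection p under 0.05 on at least 3 arrays entered, and the brightest entered probe stood for its gene. Gene names are those of the platform's annotation table, and the probes' sequences were not used. All 12 arrays in 4 groups entered one limma model (lmFit and eBayes; residual df 8), with p-values adjusted by Benjamini-Hochberg over all genes. The model was tested on simulated data. Alternatives changed the background correction, offset, normalization, filter, probe choice, blocks, a sex covariate, array weights and the arrays included. Precision is limited by 3 arrays per group.

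From each list the text names up to 3 called genes with the smallest adjusted p in each knockout, and all 7 members. The members and lists were chosen with earlier results of these data known. A change against a group with no detected array is a lower bound, for which the undetected group takes each array's lowest detected signal where that is higher.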

Additional observations from a re-analysis of the deposited data

Results flagged for a closer look

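For 5 genes that the naming rule took from the pathway lists the change differed between the knockouts by the interaction test of the limma model (type I change minus type II change). Gpx2, a glutathione peroxidase gene and NRF2 target, had a difference of 2.83 ± 0.38 (adjusted p = 0.00243), with a rise of 3.64 ± 0.27 in the type I knockout and an at least 1.57-fold rise in the type II knockout, where no wild-type array detected it and whose call was lost under 9 of 23 alternatives (adjusted p up to 0.126). With undetected signals raised to the lowest detected value the difference was 2.82. In WT I Gpx2 was detected on 1 of 3 arrays, and its type I change was 1.96 to 3.77 over the alternatives. For Atf3, a stress-induced factor gene, the difference was -3.20 ± 0.45 (adjusted p = 0.00267), with a change of -0.01 ± 0.32 in the type I knockout and a rise of 3.19 ± 0.32 in the type II knockout. Slc7a11 had a difference of 1.52 ± 0.29 (adjusted p = 0.0173) and Akr1b8 one of -1.26 ± 0.24 (adjusted p = 0.0151), both having risen in each knockout. The Slc7a11 call was lost without KO I replicate 1 (adjusted p = 0.0502) or WT II replicate 3 (0.0516), and the Akr1b8 call with median scaling (0.0528). Traf6 had a difference of 1.26 ± 0.27 (adjusted p = 0.0276), with a change of -0.19 ± 0.19 in the type II knockout. Its call was lost with dim probes kept in (0.0514), without KO I replicates 1 (0.0859) or 3 (0.0572), without WT I replicates 2 (0.074) or 3 (0.0639) and without WT II replicates 1 (0.0718) or 3 (0.0523). Outside the naming rule, and named here after their values were seen, the same test called Nqo1 (1.42 ± 0.31, adjusted p = 0.0299), Psmb1 (1.14 ± 0.26, adjusted p = 0.0375), Ddit3 (-1.19 ± 0.24, adjusted p = 0.02) and Rela (-0.72 ± 0.15, adjusted p = 0.0271) in the pathway lists. No WT I array detected Nqo1, so its type I rise is at least 5.61-fold and its difference rests partly on undetected signals. The interaction test also called the keratins Krt5, Krt1, Krt14 and Krt10 among the keratinocyte markers, which include deleted genes.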

How the results depend on the processing

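The count of 3 members called in the type II knockout was 3 to 5 when single arrays were left out, and 5 without KO II replicate 3, where Bach1 and Mafk joined. The count of 1 in the type I knockout was 0 to 2 with single arrays left out. It was 0 without background correction, with median scaling and with dim probes kept in, and 2, with Sqstm1, with separate fits of the 2 series and with array weights. Single probes gave 0 to 2 in the type I and 3 to 5 in the type II knockout under the same omissions, with 0 or 2 in the type I knockout under the same settings. For the difference of the changes and for the wild types, the count of 0 was 0 to 1 with single arrays left out and 1 with array weights. The count over all genes of called differences, 342, was 168 to 644 with single arrays left out, 539 with the title number as a block and 825 with array weights. Small uncalled changes turned sign: with median scaling Nfe2l1 in the type I knockout (-0.0074) and between the wild types (-0.0196), Mafg in the type II knockout (-0.0316) and the Keap1 difference (0.0523), with array weights Bach1 in the type I knockout (0.0559), and with the mean of its probes the Keap1 difference (0.0046). With single arrays left out the ranges were -0.026 to 0.0948 for Nfe2l1 and -0.32 to 0.33 for Bach1 in the type I knockout, -0.053 to 0.0891 for Nfe2l1 between the wild types and -0.17 to 0.13 for the Keap1 difference. The cause was not tested. Replicate numbers are shared between groups, but the deviations of same-numbered arrays correlated at 0.03 to 0.36, and not every array correlated best with its own number. Title numbers sorted the type I arrays more clearly. Knockout and wild-type arrays sharing one correlated at 0.06 to 0.36, and those with different ones at -0.28 to -0.17. The main model has no term for the title number. With the replicate block within each series the counts were 1 in the type I and 3 in the type II knockout, as without it. Mafk had no value where detection on all 12 arrays was required.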

Other observations

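Among 10 measured stress transcription factors of 14 listed, 7 rose and 0 fell in the type II knockout (median 0.98, 70% called), and 2 rose and 1 fell in the type I knockout (median 0.10, 30% called). Over all genes 37.5% were called in the type II knockout and 27.8% in the type I knockout, so the type I share is near that of genes in general. Junb, an AP-1 subunit gene, rose by 3.03 ± 0.25 in the type II knockout and 2.42 ± 0.25 in the type I knockout. Hif1a, the gene of a hypoxia factor, rose by 2.49 ± 0.26 in the type II knockout and 1.21 ± 0.26 in the type I knockout. Ppargc1a, a coactivator gene of mitochondrial biogenesis, was lower by limma in KO I than in WT I (-1.29 ± 0.28, adjusted p = 0.00594). It also differed between the wild types, WT II minus WT I, by -1.46 ± 0.28 (adjusted p = 0.0292), with mean log2 signals of 5.28 in KO I, 6.57 in WT I, 4.99 in KO II and 5.10 in WT II.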
